A study of Mus musculus with 8 samples.

Results

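The Slc25 family of mitochondrial solute carriers was followed in the cerebral cortex of mouse embryos lacking the kinase NUAK1. The members were the rows of the gene count table whose symbol begins with Slc25a and a number and whose counts summed to at least 80 over the 8 libraries. Of 21165 rows, 43 had such a symbol and 36 of these reached the sum. All 36 also passed the filter on low counts that preceded testing. This rule used no difference between genotypes, although the family was chosen with earlier results of these data known. Just inside the sum were Slc25a35 with 123 counts and Slc25a45 with 139. Below it were Slc25a31 with 30 counts, Slc25a34 with 22, Slc25a2 with 13, Slc25a43 with 12, Slc25a21 with 7, Slc25a41 with 6 and Slc25a48 with 3. Slc25a51 and Slc25a53 are listed in the table under their older symbols Mcart1 and Mcart6 and are therefore described with the other transport genes.

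RNA was sequenced from cortex at the stage the labels give as E18 in 4 wild-type (WT) and 4 Nuak1 knockout (KO) embryos on a C57Bl/6JRj background. The knockout is constitutive, so every cell of the embryo, glia, vessels and meninges included, lacks the gene, and KO animals die around birth. The embryos came from several litters and were of both sexes, unequally divided between genotypes, and the columns of the table name only the genotype and a running number, so neither litter nor sex, as the labels give them, entered a comparison. As these are bulk samples, fewer cells of a type and less RNA per cell cannot be told apart.

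Total counts ran from 9643711 in WT library R4 to 27014858 in KO library R3. Nuak1 itself held 11.1 to 20.5 normalized counts in the KO libraries and 877 to 1445 in the WT ones (log2 fold change -6.49, SE 0.22, adjusted p = 1.22e-07). Normalized counts are counts scaled to a common effective library size. The 10 projection neuron markers examined summed to between 36025 and 46335 normalized counts in every library. KO library R1 stood apart by its meningeal fibroblast markers, of which 6 of 10 listed were tested. These 6 summed to 10114 normalized counts against 349.6 to 643 in the other 7 libraries. The same library also held the highest sums of the endothelial and microglial markers. WT library R4 held the highest sum of the 11 astrocyte and glial lineage markers, 29425 against 17989 to 26948. It also held the lowest sums of the projection neuron markers, 36025, and of the progenitor markers, 9398.

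Slc25 proteins are nuclear-encoded carriers that sit almost exclusively in the inner mitochondrial membrane. Each exchanges or co-transports particular solutes between cytosol and matrix: ADP for ATP, phosphate, the aspartate and malate of the NADH shuttle, citrate, carnitine esters, glutathione, iron or enzyme cofactors. They are built from repeated pairs of membrane helices, are made in the cytosol and reach the membrane through the TOM and TIM22 complexes. In neurons they supply oxidative phosphorylation with its substrates and export the ATP on which axon growth and synaptic activity draw. The question addressed here was whether loss of NUAK1, a kinase that the study connects to mitochondrial metabolism in axons, was accompanied by altered levels of these transcripts.

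The 2 adenine nucleotide carriers are shown by sequence because Slc25a4 and Slc25a5, the largest and the third largest of the family per kilobase, encode near relatives whose reads must be told apart for the ratio between them to be measured. The stretch covers coding bases 688 to 735 of 897 in both genes, read 5′ to 3′ on the coding strand in assembly NCBIM37 with GENCODE M1 annotation. Capitals mark the codons of the signature motif found in adenine nucleotide carriers.
Slc25a4: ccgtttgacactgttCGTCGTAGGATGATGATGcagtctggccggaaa
Slc25a5: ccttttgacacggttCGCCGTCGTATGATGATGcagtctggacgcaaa
The Slc25a4 stretch lies in an exon at chr8:47293756-47293803 on the minus strand and the Slc25a5 stretch in an exon at chrX:34337820-34337867 on the plus strand. They differ at 3 of the 18 capital bases and at 7 of the 48 bases shown. Over the whole coding sequence the genes were 77.5% identical, and none of the 798 aligned windows of 100 bases, the read length, had 2 or fewer differences (the fewest was 13). Reads from coding sequence are therefore separable between the pair. Elsewhere in the genome, however, Slc25a5 had 2 stretches of at least 100 bases at 95% identity or more, of which the longest matched 100% of its coding sequence at 98.1%, and Slc25a36 had 1, at 98.94% over 100% of its coding sequence, so the counts of Slc25a5 and Slc25a36 are uncertain. The other 34 members had no such copy.

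Levels between genes were compared as normalized counts per kilobase of the transcript with the longest coding sequence, and these spanned 593-fold across the family. Slc25a4, the adenine nucleotide carrier of brain, heart and muscle, led with 4190 ± 111 normalized counts per kilobase in KO and 4138 ± 267 in WT (mean ± SD, n = 4 in each). Slc25a3, which brings in the phosphate for ATP synthesis, followed at 3439 ± 87.9 and 3653 ± 166, and Slc25a5, the more widely expressed adenine nucleotide carrier, at 2328 ± 193 and 2326 ± 27.2. These 3 genes made up 55.3 ± 0.914% of the summed per-kilobase level of all members in KO and 54.8 ± 0.483% in WT. Next came Slc25a17, which carries cofactors into peroxisomes rather than mitochondria, at 965 ± 23.0 and 921 ± 48.2. Slc25a23, an ATP-Mg/phosphate carrier gated by calcium, had means of 783 in KO and 809 in WT, and Slc25a1, the citrate carrier, 746 and 820. At the other end were Slc25a13, Slc25a24, Slc25a35 and Slc25a45, with means between 6.77 and 22.0 per kilobase. In the order of levels, 30 of the 35 neighbouring pairs overlapped in their ranges over the 8 libraries. The 5 gaps lay below Slc25a3, below Slc25a5, below Slc25a22, below Slc25a12 and below Slc25a16. With the length of all annotated exons in place of the transcript length, Slc25a4 stayed first but Slc25a3 fell to rank 4, behind Slc25a5 and Slc25a17.

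**Figure D1:**
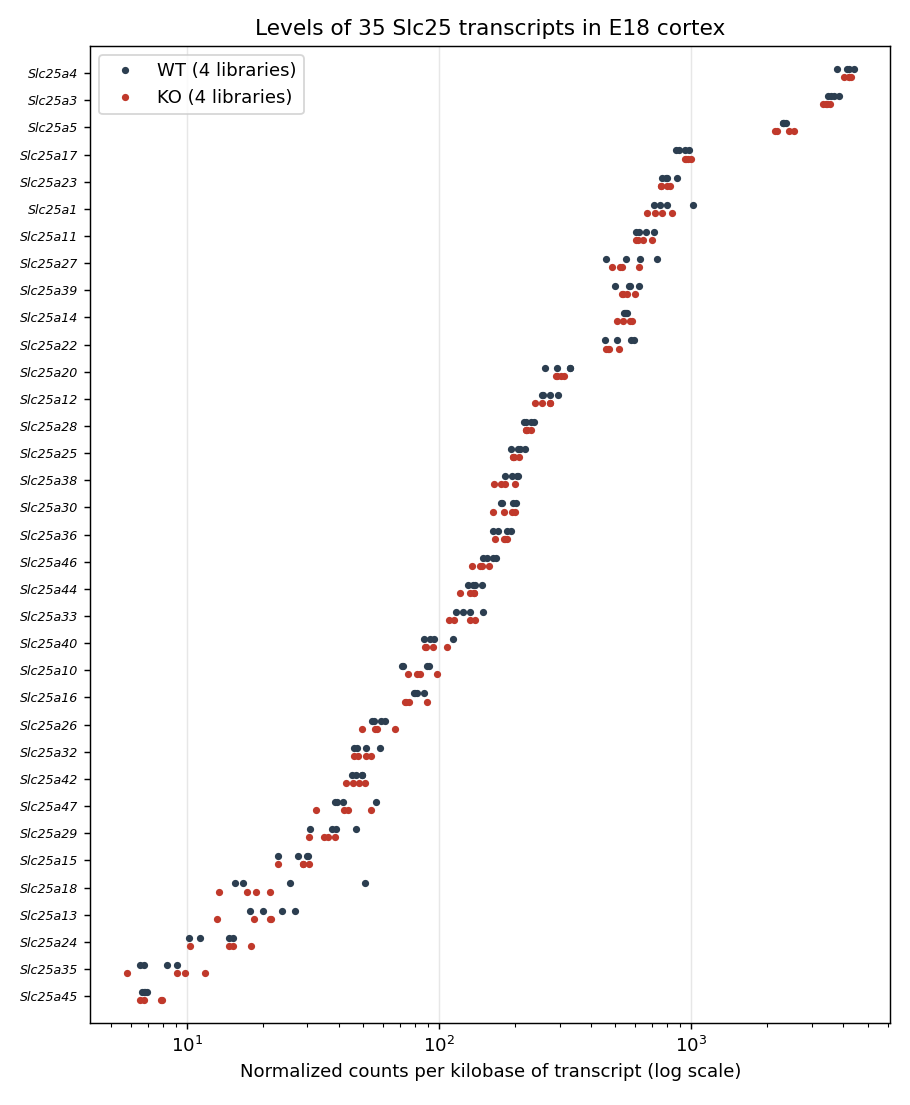
Normalized counts per kilobase of transcript (x axis, log scale) of 35 Slc25 transcripts, ordered by mean level, with 1 point for each of 4 WT (dark) and 4 KO (red) libraries. Slc25a4, Slc25a3 and Slc25a5 stand above the rest, and the KO and WT points of every gene overlap in range.

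KO and WT cortex did not differ detectably in any Slc25 transcript. None of the 36 members had an unadjusted p under 0.05 in edgeR's quasi-likelihood test, where 7.69% of the 12699 genes tested had one (4.51% higher and 3.18% lower in KO). None passed an adjusted p of 0.05 (0.0709% of all genes), and none had an absolute log2 fold change over 0.25 together with an unadjusted p under 0.05 (4.25% of all genes). DESeq2 on the same genes also placed no member under an unadjusted p of 0.05 (background 7.21%, 4.5% higher and 2.7% lower), past the same fold and p (3.85%) or past its adjusted threshold (0.551%). No member had KO and WT libraries that were fully separated, against 4.49% of all genes, or 4.35% when scaled by DESeq2.

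The intervals bound how large a difference could have gone unseen. The 95% interval of the log2 fold change included 0 for all 36 members. It lay wholly within 0.25 of 0 for 16 members (36.5% of all genes) and within 0.5 for 30 (72.2% of all genes). Among the 17 members with mean normalized counts over 500, 12 were held within 0.25. The 8 members under 100 normalized counts were measured least well, and for them a moderate difference was not detectable with these libraries. Estimates were small: 25 of 36 were under 0.1 in absolute log2 fold change (57.7% of all genes), and 3 exceeded 0.2, those of Slc25a18, Slc25a13 and Slc25a35, all with under 100 normalized counts. Each of the 3 hung on single libraries: Slc25a13 was at -0.13 without KO library R4 and -0.17 without WT library R2, and Slc25a35 at 0.04 without KO library R4 and 0.43 without KO library R3.

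More estimates fell below 0 than above it, 28 of 36, or 77.8% of members against 54.4% of all genes tested. Their median was -0.04 on the log2 scale against -0.01 over all genes, while the median absolute change was 0.06 against 0.08. Members share each library's depth and cell composition and are not independent of each other. Summed over members, the family took 0.208 ± 0.00385% of all counts in KO (range 0.204 to 0.213%) and 0.215 ± 0.00723% in WT (0.210 to 0.226%). KO libraries R2, R3 and R4, at 0.204, 0.206 and 0.209%, lay below every WT library. KO library R1, at 0.213%, lay inside the WT range, so the ranges overlapped. The highest share was that of WT library R4, which also held the highest value of 11 of the 36 members. KO libraries R1 and R4 each held the lowest value of 8 members. Replicate spread was similar in both genotypes, with a median coefficient of variation of 7.60% in KO and 7.18% in WT, and was higher in WT for 20 of 36 members.

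**Figure D2:**
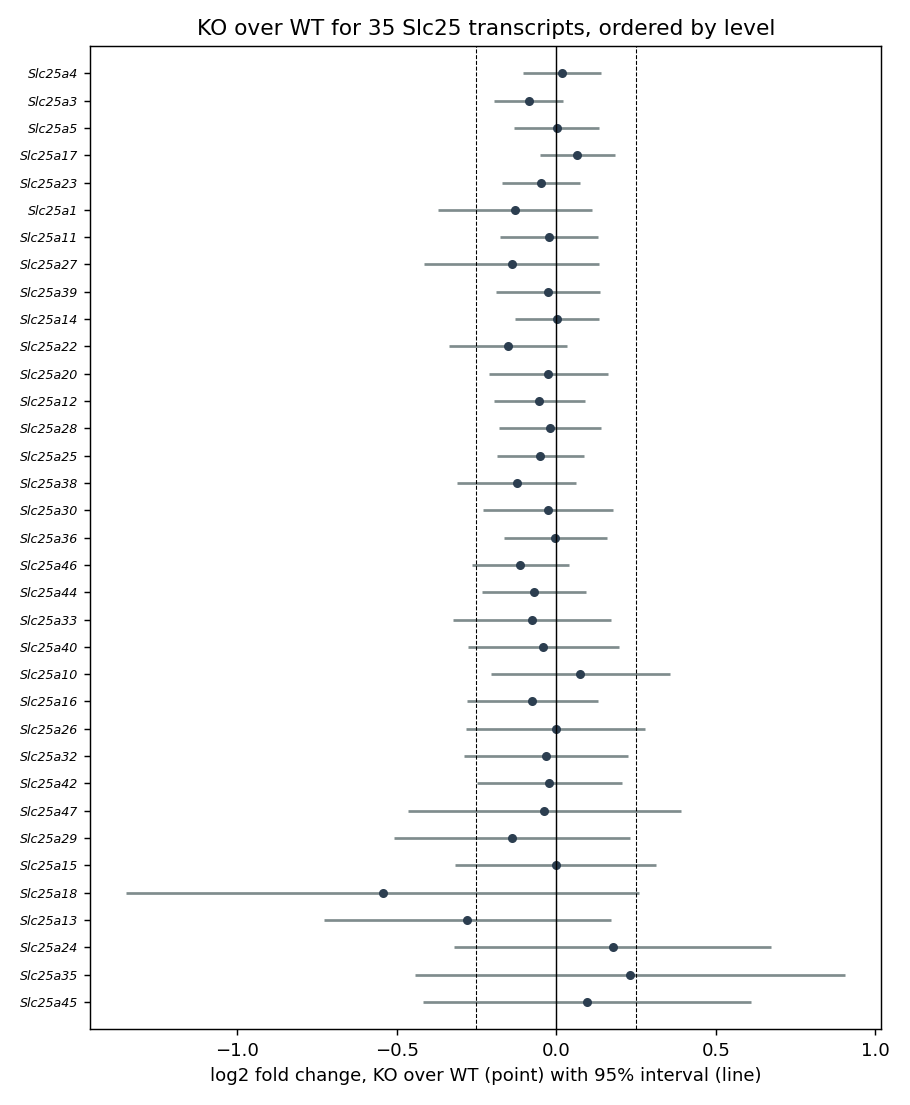
Log2 fold change of KO over WT (x axis) for 35 Slc25 transcripts in order of level, with points for the edgeR estimates from 4 libraries per genotype, lines for their 95% intervals and dashed lines at 0.25 either side of 0. All 35 lines cross 0, and the lines widen toward the low-level genes at the bottom.

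The adenine nucleotide carriers exchange matrix ATP for cytosolic ADP. Slc25a4, located at chr8:47292151-47296638, held 8151, 7752, 8124 and 8237 normalized counts in KO libraries R1 to R4 and 8087, 7993, 7273 and 8511 in WT libraries R1 to R4. Its log2 fold change was 0.02 (SE 0.06, interval -0.10 to 0.14, adjusted p = 0.961). The WT libraries held both its lowest and its highest value.

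Slc25a5, at chrX:34335646-34338802, held 3152, 2708, 3026 and 2664 normalized counts in KO and 2881, 2933, 2856 and 2868 in WT. The KO values lay on both sides of the WT ones, with an SD of 239 against 33.8, and the log2 fold change was 0.00 (SE 0.06, interval -0.13 to 0.13). Slc25a5 and Slc25a14 are on the X chromosome, where the unequal division of the sexes cannot be told apart from genotype. The germ cell paralog Slc25a31 was among the rows that did not reach the sum of 80.

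Slc25a3 lies on chromosome 10 (chr10:90579319-90586804), 6.68 Mb from Nuak1. Its normalized counts were 4753, 4572, 4646 and 4474 in KO and 4805, 4656, 4953 and 5179 in WT, with means of 4611 ± 118 and 4898 ± 223 (SD, n = 4). Here 3 of the 4 KO libraries were below every WT library and only R1 overlapped them. The log2 fold change was -0.09 (SE 0.05, interval -0.20 to 0.02, adjusted p = 0.75), so a fall of more than 0.20 in this well-counted gene lay outside the interval. Without WT library R2 the genotypes were fully separated at a log2 fold change of -0.11, like 8.94% of all genes in that fit. Over the 8 fits without single libraries the estimate ran from -0.11 to -0.05. Slc25a16 is on the same chromosome, 21.42 Mb from Nuak1.

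The calcium-regulated ATP-Mg/phosphate carriers adjust the adenine nucleotide pool of the matrix. Slc25a23 held 2542, 2685, 2543 and 2755 normalized counts in KO and 2689, 2575, 2673 and 2947 in WT (log2 fold change -0.05, SE 0.06). The highest value was that of WT library R4 and the other 7 libraries were interleaved. Slc25a25 differed by -0.05 (SE 0.06) and Slc25a24, at 34.9 to 61.5 normalized counts, by 0.18 (SE 0.23, interval -0.32 to 0.67).

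The malate-aspartate shuttle moves NADH-derived electrons into mitochondria with the aspartate/glutamate carriers Slc25a12 (aralar, the neuronal form) and Slc25a13 (citrin) and the oxoglutarate/malate carrier Slc25a11. Slc25a12 held 1523, 1748, 1624 and 1742 normalized counts in KO and 1751, 1629.9, 1642 and 1871 in WT (log2 fold change -0.05, SE 0.06, interval -0.20 to 0.09). Slc25a13 was far lower, at 66.6, 66.9, 57.6 and 41.1 in KO and 74, 83.2, 55.5 and 62.5 in WT, and its log2 fold change of -0.28 had an SE of 0.20 (interval -0.73 to 0.17, adjusted p = 0.811). The lowest value was that of KO library R4, while WT library R3 lay below 3 of the KO libraries. Slc25a11 differed by -0.02 (SE 0.07, interval -0.18 to 0.13), a gene of whose annotated exon bases 8.92% are overlapped by Rnf167 on the other strand.

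The glutamate carriers held both the largest estimate of the family and its widest interval. Slc25a22, the mitochondrial glutamate carrier mutated in a neonatal epilepsy, had 1167, 1199.6, 1191 and 1325 normalized counts in KO and 1475, 1162, 1293 and 1507 in WT, with means of 1221 ± 70.8 and 1359 ± 162. The log2 fold change was -0.15 (SE 0.08, interval -0.34 to 0.03, adjusted p = 0.745). WT library R2, the lowest of all, lay under every KO library, and without it the difference was -0.22, under an unadjusted p of 0.05 (adjusted p = 0.484) like 8.12% of all genes in that fit. Over all fits without a single library it ran from -0.22 to -0.09.

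Slc25a18, the paralog that is prominent in astrocytes, held 25.6, 18.2, 23.5 and 29 normalized counts in KO and 34.9, 22.8, 21.1 and 69.3 in WT. A single library, WT R4, stood well above the others, and the remaining WT values lay among or just above the KO ones. The log2 fold change was -0.54 (SE 0.37, interval -1.35 to 0.26, adjusted p = 0.788) and -0.10 without WT library R4. The sum of the 11 astrocyte and glial markers was highest in WT library R4 and next highest, at 26948, in WT library R3. Fabp7 made up 18405 of the sum in WT library R3. The sums ranged from 21904 to 24046 in KO and from 17989 to 29425 in WT, and no marker was at 0. Of the 11, 8 were highest in WT library R4, among them Gfap (546 against 106 to 312 elsewhere) and Aqp4 (123 against 21.9 to 58.0), and 3, Olig2, Pdgfra and Gja1, in KO library R1. Their part in the Slc25a18 value was not tested.

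Among the carboxylate carriers, Slc25a1 exports the citrate used for cytosolic acetyl-CoA. It held 1408, 1117, 1202 and 1280.2 normalized counts in KO and 1192, 1258, 1345 and 1708 in WT (log2 fold change -0.13, SE 0.11, interval -0.37 to 0.11, adjusted p = 0.836). WT library R4 was again the highest and KO library R1 the second highest. Slc25a10, the dicarboxylate carrier, held 144 to 197 and differed by 0.08 (SE 0.13, interval -0.21 to 0.36).

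Slc25a20 exchanges acylcarnitines for carnitine in fatty acid oxidation. Its normalized counts were 543, 523, 519 and 555 in KO and 591, 591, 466 and 524 in WT, so that the KO values fell inside the WT range (log2 fold change -0.02, SE 0.08, interval -0.21 to 0.16). The amino acid carriers followed the same lines. Slc25a38, which imports glycine for heme synthesis, differed by -0.12 (SE 0.08, interval -0.31 to 0.06, adjusted p = 0.794) with 296 to 357 normalized counts in KO and 326 to 367 in WT. Slc25a44, the branched-chain amino acid carrier, differed by -0.07 (SE 0.07). The ornithine carrier Slc25a15 differed by -0.00 (SE 0.14) and the basic amino acid carrier Slc25a29 by -0.14 (SE 0.17), both at 60 to 105 normalized counts in each library.

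Cofactor carriers bring in the coenzymes that matrix enzymes need. Slc25a17 held 1657, 1590.3, 1620.1 and 1568 normalized counts in KO and 1566, 1633, 1453 and 1488 in WT (log2 fold change 0.07, SE 0.05, interval -0.05 to 0.18, adjusted p = 0.827). It was one of the 8 members with a positive estimate. Slc25a16, a candidate coenzyme A carrier, held 281, 233, 238 and 229 in KO and 257, 252, 249.7 and 274 in WT (log2 fold change -0.08, SE 0.09), where KO library R1 was above all WT libraries and the other 3 KO libraries were below them. Slc25a42, the other coenzyme A carrier, differed by -0.02 (SE 0.10), the S-adenosylmethionine carrier Slc25a26 by -0.00 (SE 0.13) and the folate and flavin carrier Slc25a32 by -0.03 (SE 0.12).

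For iron and glutathione, Slc25a28 (mitoferrin 2) held 337, 333, 333 and 349 normalized counts in KO and 329, 333, 351 and 359.8 in WT, with a log2 fold change of -0.02 (SE 0.07). Its paralog Slc25a37 was not analysed here. Slc25a39, a glutathione importer, held 1008, 900.1, 938 and 890.4 in KO and 955, 962, 842 and 1049 in WT (log2 fold change -0.03, SE 0.07, interval -0.19 to 0.14). Slc25a40, its paralog, held 297, 246, 262 and 244 in KO and 242, 266, 316 and 255 in WT (log2 fold change -0.04, SE 0.11), with KO and WT libraries interleaved in both genes.

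The pyrimidine nucleotide carriers supply the precursors of mitochondrial DNA and RNA. Slc25a36 held 579, 529, 587 and 572 normalized counts in KO and 589, 614, 546 and 520.2 in WT (log2 fold change -0.00, SE 0.07, interval -0.16 to 0.16). Slc25a33 held 217, 249, 261 and 206 in KO and 234, 251, 221 and 280.4 in WT (log2 fold change -0.08, SE 0.11). Another gene, Gm13068, overlaps 14.89% of the Slc25a33 exon bases on the opposite strand. The strand setting used for counting is not given in the sources used here, so reads from such partners cannot be told apart, which applies to 9 members in all.

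The uncoupling protein relatives of the nervous system are Slc25a27 (UCP4), Slc25a14 (UCP5) and Slc25a30. Slc25a27 held 1297, 1660.3, 1394 and 1428 normalized counts in KO and 1479, 1683, 1955 and 1228 in WT, so WT library R4 was the lowest of all (log2 fold change -0.14, SE 0.12, interval -0.41 to 0.13, adjusted p = 0.845). Without that library the difference was -0.23, under an unadjusted p of 0.05 (adjusted p = 0.374) like 12.4% of all genes in that fit, whereas without WT library R3, the highest, it was -0.02. Slc25a14 ranged from 805 to 921 in KO and from 852 to 875 in WT (log2 fold change 0.00, SE 0.06), and Slc25a30 differed by -0.03 (SE 0.09).

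Slc25a46 sits in the outer membrane and takes part in mitochondrial fission and lipid exchange. It held 648, 689, 637 and 591 normalized counts in KO and 654, 673, 733 and 711 in WT, and 3 of the KO libraries lay below every WT library. Its log2 fold change was -0.11 (SE 0.07, interval -0.27 to 0.04, adjusted p = 0.773). Another gene overlaps 10.54% of its exon bases on the opposite strand.

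The remaining members were thinly counted. Slc25a35 held 17.9, 16.7, 10.5 and 21.6 normalized counts in KO and 12.3, 16.6, 11.9 and 15.2 in WT (log2 fold change 0.23, SE 0.31, interval -0.44 to 0.91), and 31.3% of its exon bases are overlapped by Rangrf on the other strand. Slc25a45 held 16.7, 19.8, 16.1 and 19.6 in KO and 16.4, 16.6, 17.2 and 16.9 in WT (log2 fold change 0.10, SE 0.23). Slc25a47, best known from liver, held 51.2 to 84.3 in KO and 60.8 to 88.5 in WT (log2 fold change -0.04, SE 0.19). KO and WT overlapped in each of these 3 genes.

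**Figure D3:**
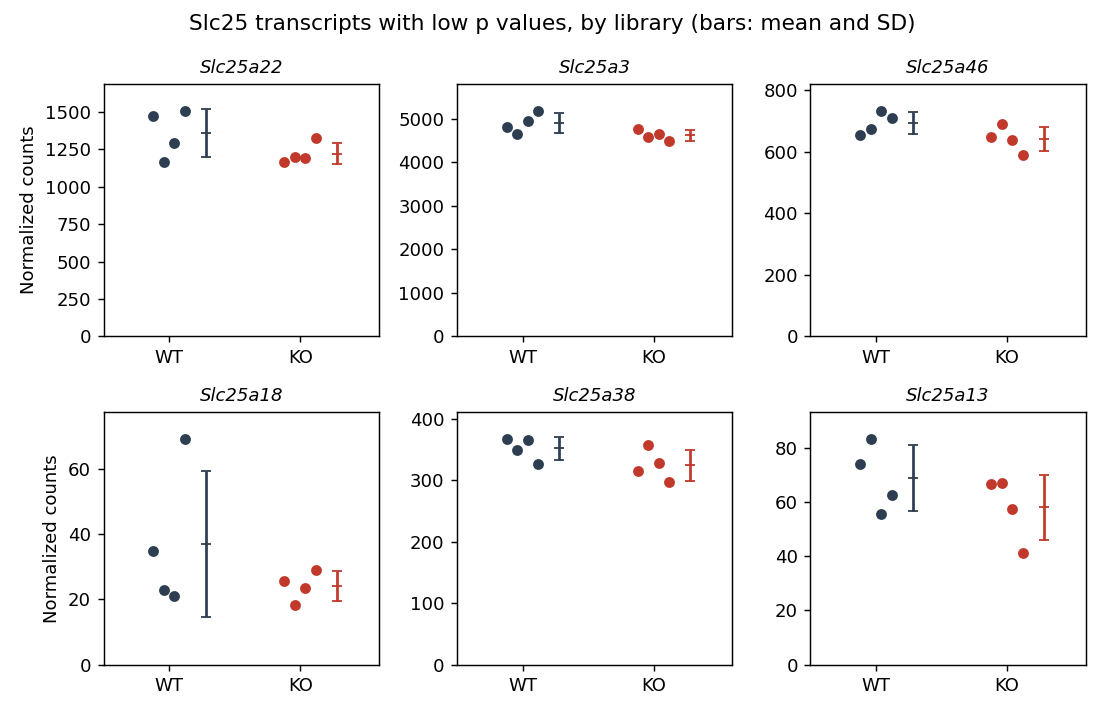
Normalized counts (y axis, from 0) of 6 Slc25 transcripts with low p values, 1 point per library in WT (dark) and KO (red), with the mean and SD of 4 libraries beside them. Every panel overlaps between genotypes, and in Slc25a18 a single WT library at 69.3 carries the WT mean.

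The balance between related carriers was compared as a ratio of counts per kilobase within each library, which cancels sequencing depth. Slc25a4 exceeded Slc25a5 in every library, by 1.81 ± 0.143 times in KO and 1.78 ± 0.113 in WT (SD, n = 4). The size of this ratio is uncertain, as Slc25a5 has near-identical copies elsewhere in the genome. Slc25a12 exceeded Slc25a13 by 14.7 ± 4.22 times in KO and 12.6 ± 2.45 in WT, with the highest ratio, 20.8, in KO library R4. Slc25a39 exceeded Slc25a40 by 5.88 ± 0.201 and 5.91 ± 1.06 times.

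Slc25a22 exceeded Slc25a18 by 27.8 ± 5.10 times in KO and 23.6 ± 8.96 in WT, and its lowest ratio, 11.6, was that of WT library R4. The ratio of Slc25a36 to Slc25a33 was 1.46 ± 0.188 in KO and 1.38 ± 0.186 in WT, and is uncertain because of the near-identical copy of Slc25a36. KO and WT overlapped in all 5 ratios. The order within a pair held under either gene length for the first 4 pairs, although with the length of all annotated exons the mean ratio over the 8 libraries was 3.60 instead of 5.89 for Slc25a39 to Slc25a40 and 16.4 instead of 25.7 for Slc25a22 to Slc25a18. With that length Slc25a36 would be lower than Slc25a33 (mean ratio 0.663 instead of 1.42).

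**Figure D4:**
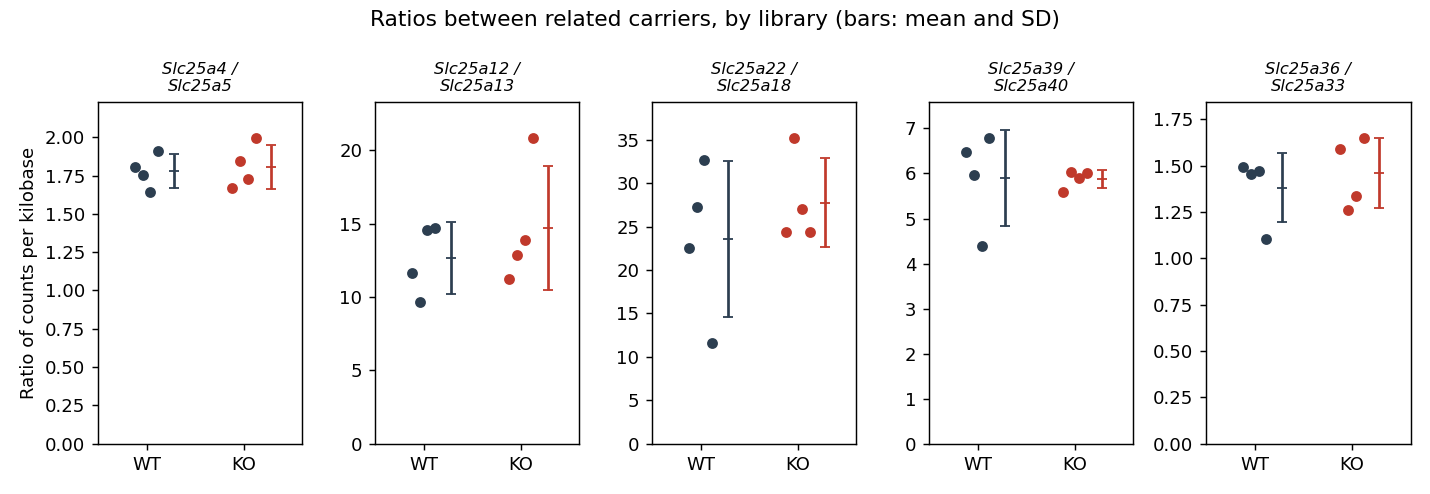
Ratio of normalized counts per kilobase (y axis, from 0) between related Slc25 genes, 1 point per WT (dark) or KO (red) library, with the mean and SD of 4 libraries beside them. In each of the 5 panels the KO points overlap the WT points.

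The carriers depend on other proteins that deliver them to the membrane or work with their substrates, and a list of such genes was examined beside them. Of 50 symbols, 35 were tested, 17 with estimates above and 18 below 0. At an unadjusted p under 0.05, 3 genes were above and 1 was below WT, 11.4% against the background of 7.69%, and none passed an adjusted p of 0.05. For 2 genes, Timm22 and Timm13, KO and WT libraries were fully separated (4.49% of all genes). Without WT library R4 the count under 0.05 was 7 of 35, where the share of all genes was 12.4%.

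The genes of the TIM22 route, by which carriers enter the inner membrane, all had positive estimates (6 of 6 tested, median 0.13, 2 with an unadjusted p under 0.05), where 54.4% of all genes had negative ones and 7.69% passed that p. Some marker lists had mostly positive estimates as well: 6 of 6 tested meningeal, 10 of 10 microglial and 11 of 12 endothelial genes. The meningeal sum was 10114 normalized counts in KO library R1, 453 to 643 in the other KO libraries and 350 to 498 in WT. Positive estimates were held by 4 of 5 red blood cell, 6 of 10 projection neuron and 5 of 11 astrocyte and glial genes. They were held by 1 of 10 progenitor and 0 of 10 interneuron genes. The part of these lists in the values of the TIM22 genes was not tested. Timm22, the channel subunit, held 423, 414, 412 and 410.1 normalized counts in KO and 349, 358, 325 and 383 in WT, so every KO library exceeded every WT library (log2 fold change 0.23, SE 0.07, interval 0.07 to 0.39, adjusted p = 0.533). Timm8a1, a small chaperone of the intermembrane space, held 122, 102, 112 and 87.7 in KO and 73, 77.1, 70 and 92.9 in WT (log2 fold change 0.44, SE 0.15, adjusted p = 0.555). Only KO library R4 and WT library R4 crossed. Over the 8 fits without single libraries, Timm22 ran from 0.20 to 0.27 and Timm8a1 from 0.38 to 0.53.

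Timm13, the partner of Timm8a1, held 780.2, 789, 795 and 786 in KO and 769, 724, 646 and 726 in WT (log2 fold change 0.14, SE 0.06, adjusted p = 0.662). The other 3 tested genes of the route, Timm9, Timm10 and the receptor Tomm70a, had estimates of 0.08, 0.13 and 0.06, and none of these had an unadjusted p under 0.05.

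Among the enzymes that share substrates with Slc25a11, Slc25a12 and Slc25a13, the cytosolic and the mitochondrial forms were each examined. Mdh1, cytosolic malate dehydrogenase, held 7496, 6636, 6957 and 6827 normalized counts in KO and 6273, 6147, 5622 and 6704 in WT (log2 fold change 0.17, SE 0.06, interval 0.04 to 0.31, adjusted p = 0.578), and only WT library R4 reached into the KO range. Got1, cytosolic aspartate aminotransferase, had 944, 1002, 1045 and 1058 in KO and 1097, 1137, 1037 and 1231 in WT (log2 fold change -0.15, SE 0.07, adjusted p = 0.645), and WT library R3 lay among the KO values. Got1 no longer had an unadjusted p under 0.05 with DESeq2, with its size factors, without the filter, with the filter of 10 counts, or without any of 6 of the 8 libraries. Mdh2 and Got2, the mitochondrial forms, did not pass an unadjusted p of 0.05.

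The family members under other symbols did not differ detectably either. Mcart1 (Slc25a51, the NAD carrier) had a log2 fold change of -0.03 (SE 0.06, interval -0.16 to 0.10), Mcart6 (Slc25a53) of 0.05 (SE 0.16), Ucp2 of -0.13 (SE 0.12), and the outer membrane relatives Mtch1 and Mtch2 of 0.02 and 0.03. Brp44l, a subunit of the mitochondrial pyruvate carrier now named Mpc1, had the next smallest p of the transport genes after Timm13 (log2 fold change 0.14, SE 0.07, adjusted p = 0.673).

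**Figure D5:**
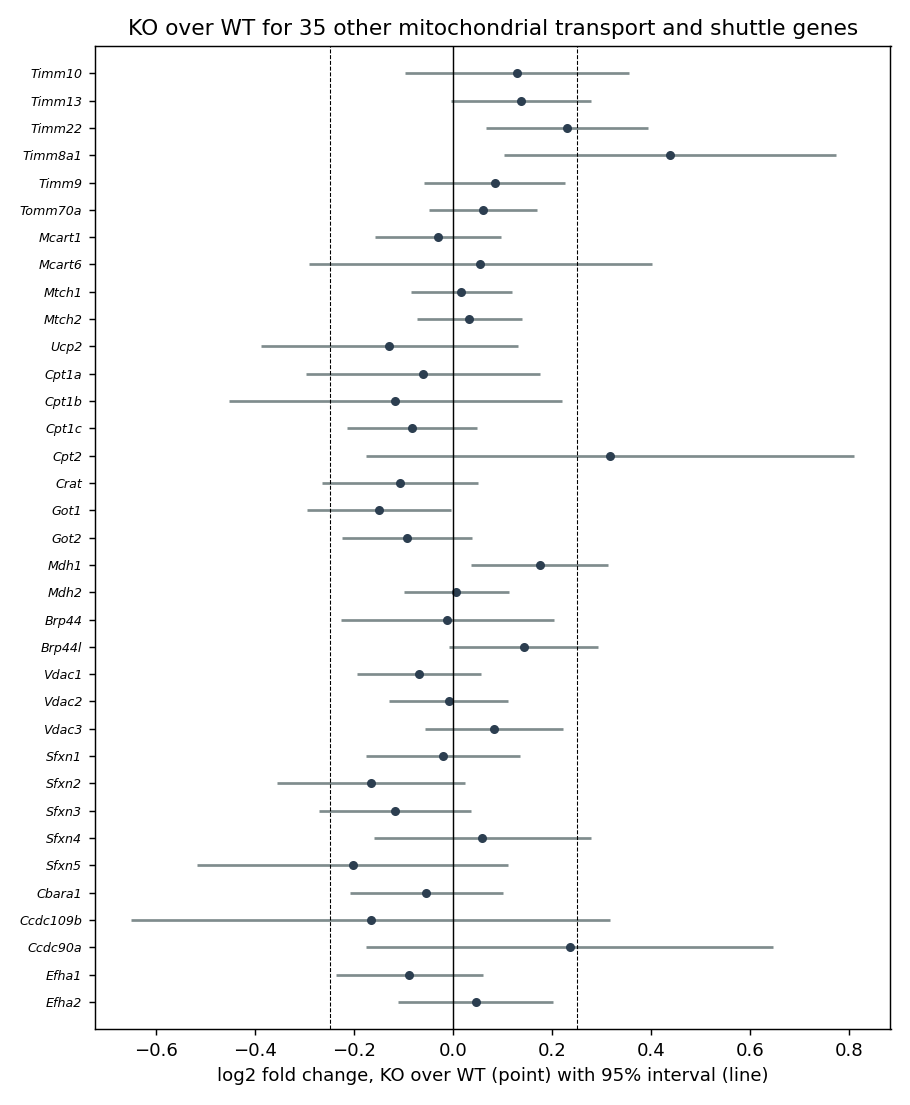
Log2 fold change of KO over WT (x axis) for 35 other genes of mitochondrial transport and its shuttles, grouped by list, with points for the edgeR estimates from 4 libraries per genotype, lines for 95% intervals and dashed lines at 0.25 either side of 0. The 6 genes of the TIM22 route at the top all have points right of 0, and 4 lines (Timm22, Timm8a1, Mdh1 and Got1) do not cross 0.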

How the data were processed

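Per the labels, cortical RNA from 8 embryos was made into stranded polyA libraries (TruSeq Stranded mRNA) and sequenced as paired 100-base reads. Trimming by the authors used Cutadapt 1.13 and Prinseq. They aligned them to mm9 with TopHat2 2.0.13, handled alignments with SAMtools 0.1.19 and counted reads per gene with HTSeq-count, whose version, annotation and strand setting are not given in the sources used here. The deposited values are whole-number counts, not normalized, and the authors compared genotypes with DESeq2. A gene with a near-identical copy can lose or gain reads in such counting.

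Here the counts were tested in edgeR 4.0.16 (R 4.3.3): TMM normalization, filterByExpr, the quasi-likelihood test of KO against WT over 12699 genes and Benjamini-Hochberg adjustment over all of them. The SE is the absolute log2 fold change over the square root of F. To give normalized counts, each count was divided by its library's effective size and multiplied by the mean of the 8 effective sizes. Lengths, positions and sequences came from GENCODE M1 on NCBIM37, the assembly behind mm9, and near-identical copies were searched with minimap2 2.31. Alternatives were DESeq2 1.42.0, its size factors in edgeR, no filter, at least 10 counts in every library, and leaving out each library. The gene length over all annotated exons was added as an alternative after the data were seen.

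Genes named with values were the 6 highest per kilobase, members of the related pairs, Slc25a3, Slc25a20, Slc25a46, those at the edge of the sum of 80, those with a library far from its group, and transport genes with an unadjusted p under 0.05. The other members and Timm13, Timm9, Timm10, Tomm70a, Brp44l and the relatives under other symbols were named after their values were seen. The members and lists were chosen with earlier results of these data known. The libraries are separate embryos per the labels. The tests set the difference between genotypes against the spread between embryos within a genotype, with no term for litter or sex. Totals of 9643711 to 27014858 counts and the spread between embryos set the precision. For 1 further pair, Slc25a37 and Slc25a28, no ratio was computed. The values of 1 member, counted in the totals of 36, are not reported here.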

Additional observations from a re-analysis of the deposited data

Results flagged for a closer look

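For each member, Nuak1, the 4 transport genes with an unadjusted p under 0.05 and each ratio between related carriers, the 4 libraries of a genotype were searched for a value far from the other 3 by Dixon's criterion (gap over range above 0.829). Of 92 groups, 2 were marked, where chance alone would mark about 4.6. Slc25a16 had 281 normalized counts in KO library R1 against 229 to 238 in the other KO libraries. KO library R1 is the one with high meningeal markers (10114 normalized counts over the 6 tested). It also held the highest sums of endothelial markers (6827 against 4236 to 5225 elsewhere) and microglial markers (2023 against 1075 to 1715). The part of these 3 lists in the Slc25a16 value was not tested. The ratio of Slc25a36 to Slc25a33 per kilobase was 1.10 in WT library R4 against 1.46 to 1.49 in the other WT libraries.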

How the results depend on the processing

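No member passed an adjusted p of 0.05, or a log2 fold change of 0.25 with an unadjusted p under 0.05, under any alternative run, and leaving out each library in turn gave 0 to 0 for both counts. The number of members with an unadjusted p under 0.05 ran from 0 to 1 on leaving out a library, as for Slc25a22 without WT R2 and Slc25a27 without WT R4, while the share of all genes in the 3 fits with 1 such member was 8.4%, 8.12% and 12.4%. The number with fully separated genotypes ran from 0 to 2, against 6.03% to 11.9% of all genes. That number was also 1 with at least 10 counts in every library, where the background was 4.43%. This filter left out Slc25a35, so 35 members were fitted. The median log2 fold change stayed between -0.044 and -0.029 without single libraries. For the other transport genes, 3 to 7 had an unadjusted p under 0.05, the highest without WT library R4. Members near 0 changed sign. With DESeq2, its size factors, no filter and the filter of 10 counts, Slc25a36 was at 0.0035, 0.0045, 0.0074 and 0.0055, Slc25a26 at 0.0048, 0.0044, 0.0075 and 0.0051, and Slc25a15 at 0.0035, 0.0052, 0.0078 and 0.0057, all in log2. On leaving out a library, log2 fold changes changed sign for Slc25a4 (-0.017 to 0.057), Slc25a5 (-0.034 to 0.042), Slc25a11 (-0.058 to 0.026), Slc25a39 (-0.075 to 0.027), Slc25a14 (-0.017 to 0.043), Slc25a20 (-0.085 to 0.020), Slc25a28 (-0.039 to 0.0097), Slc25a30 (-0.058 to 0.034), Slc25a36 (-0.034 to 0.040), Slc25a40 (-0.093 to 0.048), Slc25a26 (-0.063 to 0.061), Slc25a32 (-0.080 to 0.045), Slc25a42 (-0.065 to 0.027), Slc25a47 (-0.17 to 0.11) and Slc25a15 (-0.066 to 0.078). Nuak1 ranged from -6.66 to -6.36. The cause of these shifts was not tested. No paired analysis was possible because no litter or embryo name in the columns ties a KO to a WT library. The 8 members under 100 normalized counts were measured least well. For Slc25a18, 1 of them, the coefficient of variation in WT was 60.4%, against 19.7% from counting alone.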
